A study of Mus musculus with 4 samples.

Results

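Genes for the vomeronasal receptors lie in dense arrays in the mouse genome, and the regions called there in a CUT&RUN experiment on the transcription factor Six3 are described here. A region was taken when it lay on chromosomes 1 to 19 and overlapped, by 1 bp or more, the body or the 5 kb either side of a protein-coding gene whose symbol starts with Vmn1r or Vmn2r. This gave 3536 of the 1578514 regions in the deposited table, of which 1517324 lay on chromosomes 1 to 19. Of these 3536 regions, 1217 lay at genes of the V1R family (Vmn1r) and 2319 at genes of the V2R family (Vmn2r), and 0 lay at both. The rule fitted 354 genes, but 3 of them (Vmn2r122, Vmn1r186 and Vmn1r187) are placed below position 3000000, where no region of an autosome began, and were left out. The remaining 229 V1R and 122 V2R genes were spread over 11 chromosomes.

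The study overexpressed Six3, a homeobox transcription factor needed for forebrain and eye development, in primary mouse neural stem cells of wild-type (WT) genotype and asked which genomic regions it binds. All cells had been kept for 3 h in a medium for neural differentiation before an antibody directed a protein A/G fusion of micrococcal nuclease to the chromatin and the released DNA was sequenced. The 2 groups were 3 libraries for the FLAG tag on Six3 and 1 for IgG, the control antibody, from the same kind of cells. The table analysed here is a single list of called regions without a column for any 1 library, so FLAG was not set against IgG. Library depths are unknown, and no value has a replicate error. The table holds no expression values, so the labelled cell type was not checked against its markers.

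Vomeronasal receptors are G protein-coupled receptors of the sensory neurons in the vomeronasal organ, where they detect pheromones and other chemical cues. V1R receptors have a short extracellular end and signal in apical neurons through the G protein subunit Gnai2, whereas V2R receptors are class C receptors with a large extracellular domain and signal in basal neurons through Gnao1. Both families grew by repeated tandem duplication, so neighbouring genes are often close copies of each other, and each sensory neuron expresses very few of them.

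How alike these copies are can be read from their promoters, and the first pair below is shown for that reason. The windows are RefSeq sequences of the GRCm38.p6 assembly, which has mm10 coordinates, from 250 bases before to 50 bases after the annotated start of a gene, and are printed 5′ to 3′ on the strand of the gene. Among V1R genes of the largest cluster that had no region in the gene body or 5 kb either side, Vmn1r111 (chr7:20703167-20703466, minus strand) and Vmn1r242 (chr7:20233779-20234078, minus strand) had the most similar windows that were not identical. They differed by A61T, the single base in capitals, with positions counted from 1 at the 5′ end and the base of Vmn1r111 given first. The window of Vmn1r111 was identical in 6 genes.
Vmn1r111: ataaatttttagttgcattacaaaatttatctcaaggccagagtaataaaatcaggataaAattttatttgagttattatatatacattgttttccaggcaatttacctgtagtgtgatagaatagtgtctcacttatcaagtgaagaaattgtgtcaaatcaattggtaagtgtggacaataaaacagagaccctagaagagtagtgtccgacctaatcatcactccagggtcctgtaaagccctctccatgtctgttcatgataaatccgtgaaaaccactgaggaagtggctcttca
Vmn1r242: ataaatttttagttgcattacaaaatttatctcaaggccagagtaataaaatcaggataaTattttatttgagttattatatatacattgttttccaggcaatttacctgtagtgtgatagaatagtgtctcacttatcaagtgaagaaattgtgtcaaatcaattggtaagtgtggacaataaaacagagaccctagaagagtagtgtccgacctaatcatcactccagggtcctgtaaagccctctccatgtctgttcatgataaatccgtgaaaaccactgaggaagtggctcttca
The next 3 windows are shown because they shared no 50-base word with the window of another gene and did lie under a region of the set with heights in steps of 1.9, described below. Capitals mark the bases under such a region alone. Regions of the other set, with steps of 0.48, also overlapped the windows of Vmn1r85 and Vmn2r68 and are not marked. Vmn1r181 (chr7:23983711-23984010, plus strand) belongs to the same cluster as the first pair, and 145 bases of its window lay under a 1.9-step region at chr7:23983866-23984370. Of the V1R and V2R genes with such windows, Vmn1r85 (chr7:13085166-13085465, minus strand) and Vmn2r68 (chr7:85237655-85237954, minus strand) had the tallest 1.9-step region over the window. In Vmn1r85 that region was chr7:13084653-13085379 and covered 214 bases of the window, and in Vmn2r68 it was chr7:85237715-85237914 and covered 200 bases.
Vmn1r181: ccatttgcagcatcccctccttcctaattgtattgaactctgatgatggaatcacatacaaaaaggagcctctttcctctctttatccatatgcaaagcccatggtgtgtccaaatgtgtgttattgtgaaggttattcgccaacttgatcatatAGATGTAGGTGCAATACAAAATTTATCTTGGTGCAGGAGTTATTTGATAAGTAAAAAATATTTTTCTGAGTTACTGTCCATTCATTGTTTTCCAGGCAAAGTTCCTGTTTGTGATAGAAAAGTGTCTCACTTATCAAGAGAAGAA
Vmn1r85: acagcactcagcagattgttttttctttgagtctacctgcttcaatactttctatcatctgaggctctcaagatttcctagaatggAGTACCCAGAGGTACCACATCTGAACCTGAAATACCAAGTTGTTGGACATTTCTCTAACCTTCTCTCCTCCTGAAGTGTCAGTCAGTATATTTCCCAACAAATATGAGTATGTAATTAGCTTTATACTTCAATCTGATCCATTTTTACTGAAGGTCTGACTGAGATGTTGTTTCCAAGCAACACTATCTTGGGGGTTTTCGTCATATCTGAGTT
Vmn2r68: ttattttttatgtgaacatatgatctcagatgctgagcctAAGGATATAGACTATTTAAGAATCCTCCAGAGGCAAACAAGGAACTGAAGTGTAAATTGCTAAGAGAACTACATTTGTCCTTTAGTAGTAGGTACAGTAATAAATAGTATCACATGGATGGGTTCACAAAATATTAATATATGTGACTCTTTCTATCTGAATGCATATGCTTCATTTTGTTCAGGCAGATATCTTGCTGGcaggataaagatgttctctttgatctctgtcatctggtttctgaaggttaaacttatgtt

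The table holds 2 sets of regions that differ in the scale of their highest coverage signal, called height below. In the 1.9-step set the height is a whole multiple of 1.9 and in the 0.48-step set of 0.48, each within 0.001 of a step. The sources used here do not say which libraries gave each set, and heights were compared only within a set. Of the regions at receptor genes, 2052 belonged to the 1.9-step set and 1484 to the 0.48-step set, so that 58.03% were of the 1.9-step set, against 60.3% on chromosomes 1 to 19. Their median widths were 462 and 200 bp, close to the autosomal 456 and 194 bp. In width and in the mix of the 2 sets, regions at receptor genes were thus close to those elsewhere.

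Receptor genes were chained into clusters where neighbouring gene bodies were at most 500 kb apart. There were 19 clusters of 3 or more genes, with 338 of the 351 genes: 5 held V1R genes alone, 10 V2R genes alone and 4 were mixed. Each cluster span, with 5 kb at either end, was compared with the 1 Mb on each side that lay in no other cluster. Over all clusters the spans held 258 regions per Mb of the 1.9-step set against 364 in the flanks, a ratio of 0.709 (95% counting interval 0.687 to 0.731). In the 0.48-step set they held 201 against 247 per Mb, a ratio of 0.815 (0.786 to 0.845). These intervals are exact binomial intervals of the share of regions that lay in the span, and they cover counting error alone, since regions are not replicates. By covered length the picture was the same: 1.9-step regions covered 12.8% of the spans and 18.5% of the flanks, and 0.48-step regions covered 4.54% and 5.57%.

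The density was lowest in the V1R clusters, and 1 of their clusters decided this value. In the V1R clusters the 1.9-step set held 209.8 regions per Mb against 383 in the flanks, a ratio of 0.547 (0.516 to 0.581), and the 0.48-step ratio was 0.607 (0.566 to 0.651). Without the cluster from Vmn1r91 to Vmn1r183, the V1R ratios were 0.874 and 0.899. In the V2R clusters the 1.9-step set held 264 against 368 per Mb, a ratio of 0.717 (0.684 to 0.752), and the 0.48-step ratio was 0.831 (0.786 to 0.877). Without the cluster from Vmn2r29 to Vmn2r37 these ratios were 0.829 and 0.929. The order of the families thus rested on Vmn1r91 to Vmn1r183: without it the V1R ratio was above the V2R ratio of all V2R clusters in both sets. With both clusters left out it was above in the 1.9-step set and below in the 0.48-step set. In the mixed clusters the interval of the 1.9-step ratio held 1, at 1.05 (0.988 to 1.12), and the 0.48-step ratio was 1.17 (1.09 to 1.25).

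**Figure D1:**
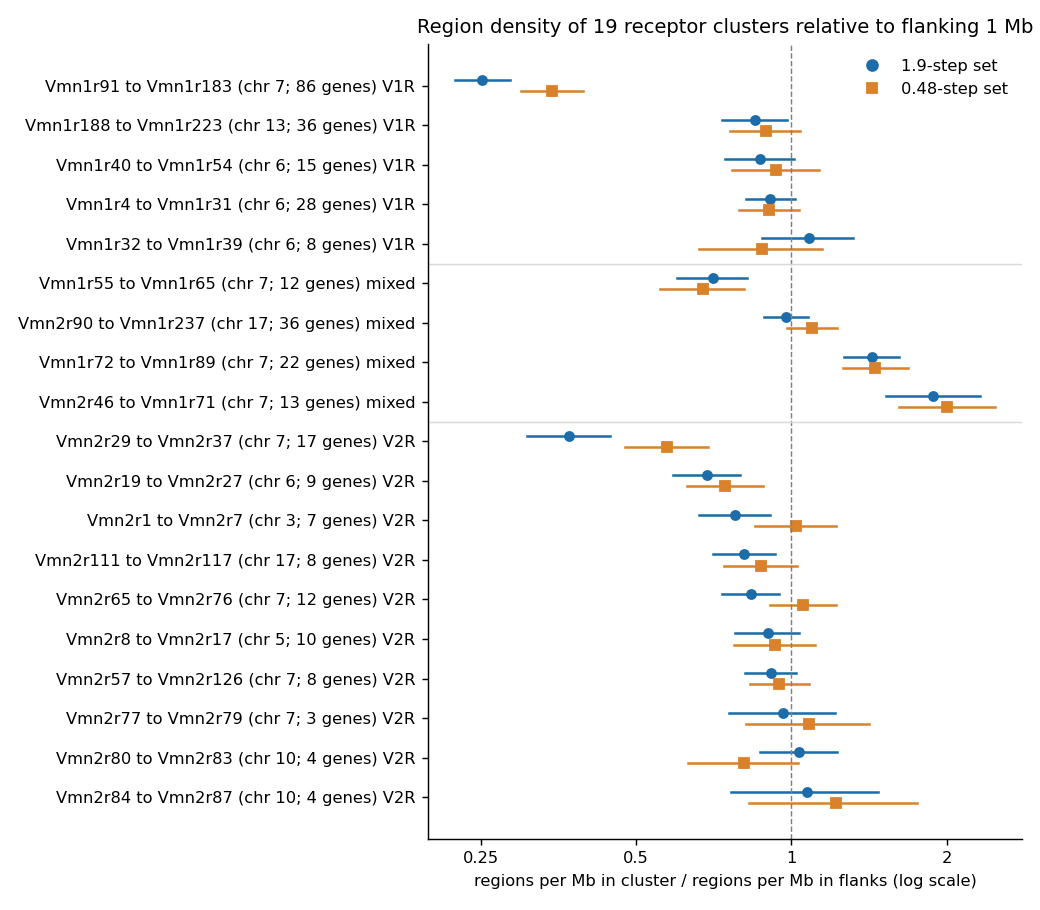
Ratio of regions per Mb in the span of each of the 19 clusters to that in its 1 Mb flanks, on a log axis, for the 1.9-step set (circles) and the 0.48-step set (squares). Lines are exact 95% counting intervals, clusters are grouped as V1R, mixed and V2R, and the dashed line marks equal density: Vmn1r91 to Vmn1r183 lies lowest in both sets at 0.252 and 0.343, and Vmn2r46 to Vmn1r71 lies highest at 1.88 and 2.00.

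Cluster by cluster, 14 of 19 were below their flanks by 1.9-step regions and 12 by 0.48-step regions, and 10 were below in both. The counting interval lay wholly below 1 in 8 clusters (1.9-step) and in 4 (0.48-step), and wholly above 1 in 2 clusters for each. The median ratio over clusters was 0.899 and 0.929, so that most arrays stood a little below their surroundings. In 15 of 19 clusters the 1.9-step ratio was lower than the 0.48-step ratio. Against all 2393 windows of 1 Mb on chromosomes 1 to 19, whose medians were 382 and 254 regions per Mb, 17 and 15 clusters lay below the median. The same 6 clusters lay below the 5th percentile of these windows in both sets, at 290.0 and 218 regions per Mb: Vmn1r91 to Vmn1r183, Vmn2r29 to Vmn2r37, Vmn2r46 to Vmn1r71, Vmn1r55 to Vmn1r65, Vmn2r19 to Vmn2r27 and Vmn1r188 to Vmn1r223.

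The V1R cluster from Vmn1r91 to Vmn1r183 (chr7:20096158-24060691), with 86 genes the largest of all, was the sparsest relative to its flanks. It held 101 regions per Mb of the 1.9-step set against 401 outside, a ratio of 0.252 (0.223 to 0.284), and 89.5 against 261 of the 0.48-step set, a ratio of 0.343 (0.299 to 0.393). Cut into bins of 100 kb, 13 of its 39 bins had no 1.9-step region and 9 had no region of either set. The median bin held 3 regions of the 1.9-step set and the fullest 34, whereas the 21 bins outside held 31 to 52, with a median of 39. The bin across the distal edge of the span was counted as outside. The regions were not evenly thinned along the array. The 16 genes from Vmn1r167 to Vmn1r183 at its distal end, a stretch chosen after its values were seen, each had 3 to 11 regions within 5 kb, while 41 of the 70 genes from Vmn1r91 to Vmn1r166 had none.

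The other V1R clusters stood much closer to their surroundings. The span of the 28 genes from Vmn1r4 to Vmn1r31 (chr6:56918914-58477878) held 15 whole bins of 100 kb with 28 to 42 regions of the 1.9-step set each. The median was 38 in these bins and 40.0 outside, where the bin across the distal edge of the span was counted as outside. Their ratios were 0.910 (0.816 to 1.01) and 0.904 (0.790 to 1.03). The clusters from Vmn1r40 to Vmn1r54 (chr6:89706261-90275053) and from Vmn1r32 to Vmn1r39 (chr6:66547183-66810332) had 1.9-step ratios of 0.869 (0.744 to 1.01) and 1.08 (0.878 to 1.32). The first holds Vmn1r49, a receptor for the urinary pheromone 2-heptanone, which had 5 and 3 regions of the 2 sets and a tallest height of 7.6. That gene is named for its known ligand, after its values were seen. The 36 genes from Vmn1r188 to Vmn1r223 (chr13:22082878-23255323) had ratios of 0.849 (0.734 to 0.979) and 0.891 (0.761 to 1.04).

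**Figure D2:**
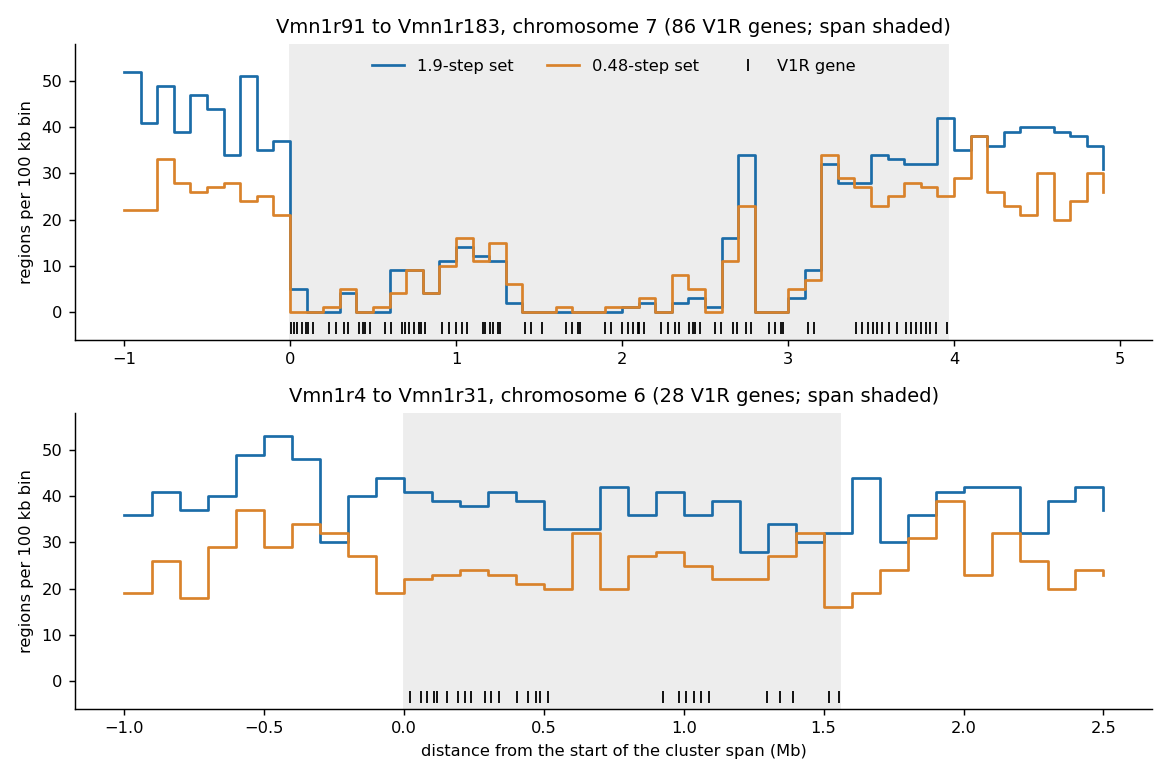
Regions per 100 kb bin along 2 V1R clusters and the 1 Mb on each side, for the 1.9-step set (blue) and the 0.48-step set (orange). The shaded part is the cluster span and the ticks below are V1R genes, and the x axis is the distance from the start of the span in Mb: inside Vmn1r91 to Vmn1r183 the median bin holds 3 regions of the 1.9-step set against 39 outside, and inside Vmn1r4 to Vmn1r31 it holds 38 against 40.0. For these medians the bin across the distal edge of a span is counted as outside.

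Among V2R clusters the 17 genes from Vmn2r29 to Vmn2r37 (chr7:7207996-9228653) stood lowest. Their span held 86.6 regions per Mb of the 1.9-step set against 234 outside, a ratio of 0.370 (0.307 to 0.445), and the 0.48-step ratio was 0.573 (0.475 to 0.690). The 9 genes from Vmn2r19 to Vmn2r27 (chr6:123303333-124236784) followed, with ratios of 0.686 (0.589 to 0.796) and 0.744 (0.628 to 0.879). That cluster holds Vmn2r26, a receptor that detects peptide ligands of major histocompatibility molecules. It had 14 and 12 regions of the 2 sets and was named for its ligand after its values were seen.

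The cluster from Vmn2r1 to Vmn2r7 (chr3:64073172-64724602) holds the V2R genes that are expressed broadly together with other V2R genes. It had ratios of 0.776 (0.661 to 0.908) in the 1.9-step set and 1.02 (0.849 to 1.22) in the 0.48-step set. A 1.9-step interval below 1 beside a 0.48-step interval that held 1 was also seen from Vmn2r65 to Vmn2r76 (chr7:84935169-86251201), at 0.834 (0.735 to 0.945) and 1.05 (0.909 to 1.22), and from Vmn2r111 to Vmn2r117 (chr17:22542941-23484597), at 0.809 (0.703 to 0.928) and 0.873 (0.740 to 1.03). The last holds Vmn2r116, the receptor for the tear pheromone ESP1, which had 17 and 4 regions and was also named for its ligand after its values were seen. In the remaining 5 V2R clusters both intervals held 1. Their 1.9-step ratios were 0.899 from Vmn2r8 to Vmn2r17, 0.911 from Vmn2r57 to Vmn2r126, 0.963 from Vmn2r77 to Vmn2r79, 1.04 from Vmn2r80 to Vmn2r83 and 1.07 from Vmn2r84 to Vmn2r87.

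The mixed clusters went both ways. The 13 genes from Vmn2r46 to Vmn1r71 (chr7:9749636-10754538) had the highest ratios of all, 1.88 (1.53 to 2.32) and 2.00 (1.62 to 2.49). Its flanks held 113 regions per Mb in the 1.9-step set, and the cluster itself, at 213 per Mb, was below the 5th percentile of autosomal windows. The 22 genes from Vmn1r72 to Vmn1r89 (chr7:11664599-13225289) held 363 against 254 per Mb, a ratio of 1.43 (1.27 to 1.62), and 1.46 (1.26 to 1.68) in the 0.48-step set. Bins of 100 kb held 11 to 26 regions of the 1.9-step set before this span and 25 to 42 after it, so the sparse flank was the one before. At 363 per Mb the span itself was below the autosomal window median of 382. The 36 genes from Vmn2r90 to Vmn1r237 (chr17:17698941-21319886) had intervals that held 1, at 0.975 (0.884 to 1.08) and 1.10 (0.979 to 1.23). The 12 genes from Vmn1r55 to Vmn1r65 (chr7:5141490-6016010) were below theirs at 0.703 (0.601 to 0.820) and 0.673 (0.556 to 0.810).

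The 13 genes outside clusters all had regions, as did nearly all coding genes, of which 0.837% had none. Vmn1r1 had 9 regions within 5 kb, Vmn1r2 had 6, Vmn1r3 had 4, Vmn1r90 had 6, Vmn1r184 and Vmn1r185 had 7 each and Vmn1r238 had 5. Among V2R genes, Vmn2r88 had 15, Vmn2r89 had 12, Vmn2r118 had 28, Vmn2r120 had 33, Vmn2r129 had 15 and Vmn2r18 had 4. Vmn2r18 differed from the other 12 in that all 4 of its regions were of the 1.9-step set, and its surroundings were of the same kind: the 1 Mb flanks held 285 regions per Mb of the 1.9-step set, 90.2% of them 4 or more steps high, and 9.63 per Mb of the 0.48-step set.

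The sparse clusters held long stretches without any base in a region of either set. Stretches of 20 kb or more made up 14.6% of the cluster spans against 1.48% of the flanks and 1.06% of chromosomes 1 to 19. Without Vmn1r91 to Vmn1r183 they made up 6.49% of the spans. In V1R clusters the share was 30.01% against 0% in the flanks, in V2R clusters 9.15% against 2.36%, and in mixed clusters 5.14% against 6.90%. Such stretches touched 7 of the 19 clusters. In Vmn1r91 to Vmn1r183 they took up 54.8% of the span in 25 stretches, and the longest stretch in its flanks was 10923 bp. The shares were 27.2% in Vmn2r29 to Vmn2r37, 25.1% in Vmn2r19 to Vmn2r27, 20.2% in Vmn1r55 to Vmn1r65, 18.5% in Vmn2r46 to Vmn1r71, 7.54% in Vmn1r188 to Vmn1r223 and 1.95% in Vmn2r57 to Vmn2r126. For Vmn2r29 to Vmn2r37 and Vmn2r46 to Vmn1r71 the flanks were as bare as the spans, at 25.1% and 26.7%.

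**Figure D3:**
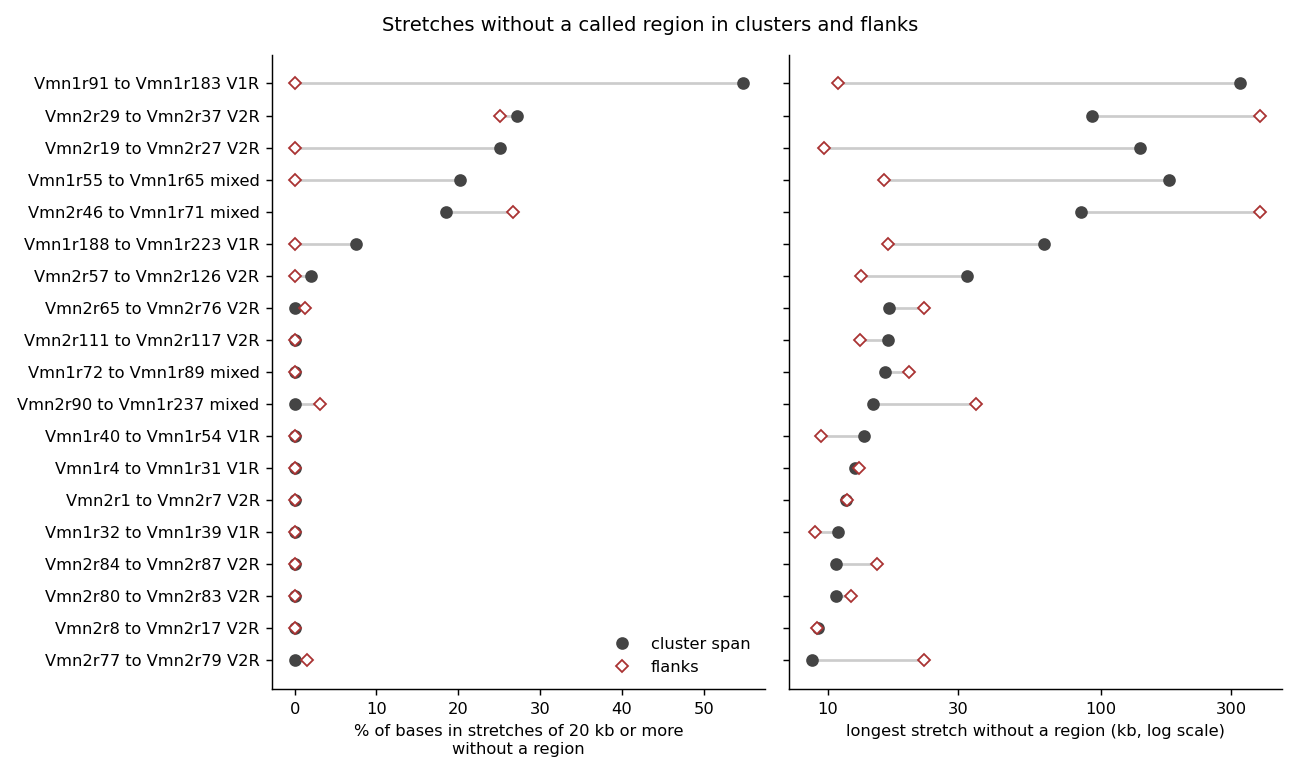
Left, percentage of bases in stretches of 20 kb or more without a region of either set, and right, length of the longest such stretch in kb on a log axis, in each cluster span (filled circles) and its flanks (open diamonds). Vmn1r91 to Vmn1r183 stands at 54.8% with a longest stretch of 323 kb against 0% and 10.9 kb in its flanks, and stretches that cross an edge are counted up to that edge.

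The longest of the 49 stretches, 467 kb at chr7:9367257-9834313, begins in the flank of Vmn2r46 to Vmn1r71 and holds the whole body of Vmn2r46. Vmn2r47 lies across its right edge, and Vmn2r37 and Vmn2r48 are the nearest receptor genes wholly outside it. The next, 323 kb at chr7:21737419-22060834, lies between Vmn1r132 and Vmn1r139 and holds 6 V1R genes, among them Vmn1r135 and Vmn1r138. Stretches of 295, 258 and 198 kb in the same cluster hold 3, 4 and 6 V1R genes. The 177 kb at chr7:5652644-5829609, between Vmn1r61 and Vmn1r64, holds Vmn1r62 and Vmn1r63. Of the longest stretches in the other large clusters, the 61.6 kb at chr13:22894519-22956152 between Vmn1r212 and Vmn1r213 and the 92.6 kb at chr7:8817245-8909879 between Vmn2r45 and Vmn2r39 hold no whole receptor gene. The latter takes in part of Vmn2r40. In Vmn1r4 to Vmn1r31, Vmn1r72 to Vmn1r89 and Vmn2r90 to Vmn1r237 no stretch reached 20 kb, and the longest were 12612, 16131 and 14664 bp. In all, 48 receptor genes, 43 of them in Vmn1r91 to Vmn1r183, lay wholly in such a stretch, a position shared by 1.01% of all 20556 autosomal protein-coding genes.

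Most receptor genes had regions, and those without were nearly all V1R genes of 1 cluster. In the gene body with 5 kb either side, 42 of 229 V1R genes (18.3%) and 1 of 122 V2R genes (0.820%) had no region of either set. Over all coding genes this was 0.837%, over coding genes of up to 2 kb 2.83%, and over the 1103 olfactory receptor genes, also short and clustered, 0.181%. Of the 42 V1R genes, 41 were among the 86 of Vmn1r91 to Vmn1r183, where 47.7% had none; the first by position were Vmn1r240, Vmn1r93, Vmn1r94 and Vmn1r95. Outside that cluster 1 of 143 had none, which was Vmn1r62. The V2R gene was Vmn2r46. These counts depend on the window, since V1R genes had a median length of 924 bp: with the body alone, 110 V1R and 3 V2R genes had none and 1932 regions remained.

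Genes with a region showed the same division. A 1.9-step region was present at 75.5% of V1R and 96.7% of V2R genes, against 98.7% of all coding genes and 95.1% of those of up to 2 kb. A 0.48-step region was present at 75.5% and 95.1%, against 97.8% and 91.9%. V1R genes outside Vmn1r91 to Vmn1r183 stood at 95.8% and 96.5%, close to short genes in general. The median number of regions per kb was 0.639 in these genes, 0.0914 in the V1R genes of Vmn1r91 to Vmn1r183, 0.576 in V2R genes and 0.677 in all coding genes. The highest number per kb was at Vmn1r37 in the V1R family, with 13 regions (1.19 per kb), and at Vmn2r85 in the V2R family, with 21 (0.984 per kb). By number alone Vmn2r1, whose body spans 142676 bp, had the most, with 96.

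The V1R genes without a region nearly all had promoters that recur at other genes. Of the 351 genes, 322 had a promoter window in the RefSeq table (206 V1R, 116 V2R). A window was called repeated when at least 50% of its 50-base words also occurred in the window of another gene. This held for 71 V1R windows (34.5%) and 24 V2R windows (20.7%), against 3.42% of all 16456 windows. Of the V1R genes with a repeated window 40 of 71 had no region, and of the others 1 of 135. The median number of regions per gene was 0 and 7. In Vmn1r91 to Vmn1r183 alone, 40 of 67 genes with a repeated window had no region and 0 of 16 without. Most of those 16 lay in the distal stretch from Vmn1r167 to Vmn1r183. The others, Vmn1r113, Vmn1r125 and Vmn1r148, lay between Vmn1r91 and Vmn1r166 and had 4, 2 and 1 regions. Every gene of that stretch had a region, also Vmn1r173 and Vmn1r174, whose windows were repeated. Repeated windows and position along the array thus largely went together in this cluster and cannot be told apart. V2R genes, which are longer, had a median of 8 regions with a repeated window and 21 without. In Vmn2r29 to Vmn2r37 both medians were 4, but they rest on 13 genes with a repeated window and only 4 without. Those 4 genes ran from 1 region at Vmn2r42 to 40 at Vmn2r29. In the V2R genes outside that cluster the medians were 18 and 21. Vmn2r46, the V2R gene without a region, had no promoter window. All V2R genes with a window thus had regions, both the 24 with a repeated window and the 92 others, so their shares without a region could not differ. Of the 4 V1R genes with a repeated window outside Vmn1r91 to Vmn1r183, 0 had no region. A division like that of all V1R genes was seen outside both families: 89 of 467 coding genes with a repeated window had no region (19.1%), against 22 of 15667 others (0.140%). The sources used here do not say whether reads that fit several places were kept, and the part of repeated sequence in the counts of regions was not tested.

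**Figure D4:**
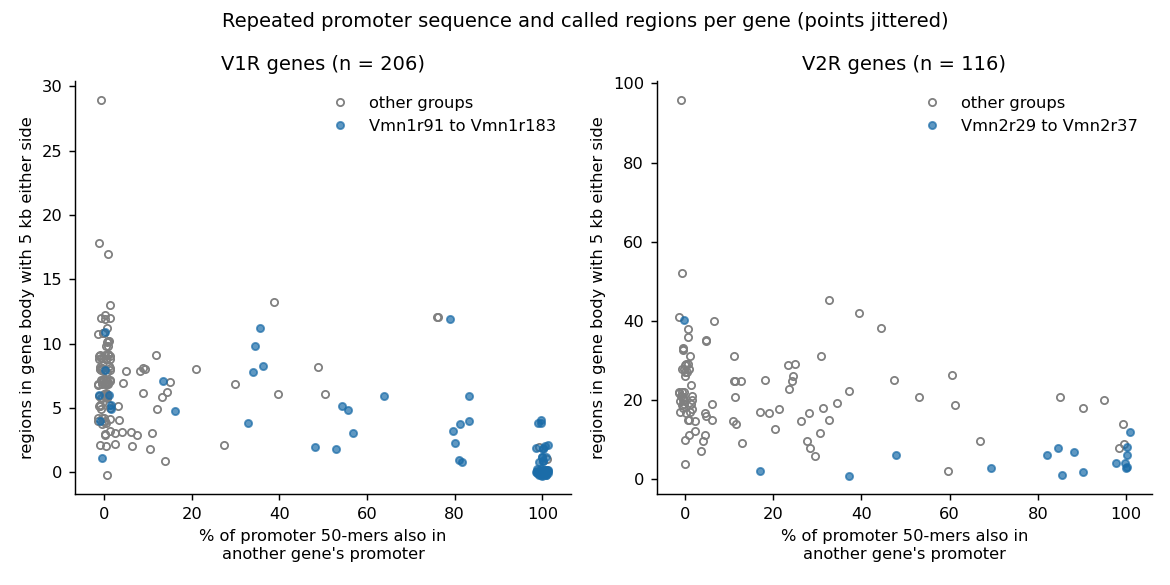
Regions in the gene body with 5 kb either side (y axis, number) against the percentage of 50-base words of the promoter window that also occur in the window of another gene (x axis), for 206 V1R genes (left) and 116 V2R genes (right), with points jittered so that ties can be seen. Filled points are genes of Vmn1r91 to Vmn1r183 (left) and Vmn2r29 to Vmn2r37 (right), and the filled points at the bottom right of the left panel are the V1R genes whose windows are wholly repeated and that have few or no regions.

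Identical windows formed 25 sets with 62 genes, 54 V1R and 8 V2R, and 52 of the genes lay in Vmn1r91 to Vmn1r183. Of the 62 genes, 38 had no region, and in 11 sets no gene had one. The largest set was that of Vmn1r111, printed above, with Vmn1r118, Vmn1r131, Vmn1r138, Vmn1r166 and Vmn1r257: the first 4 of these 6 genes had no region, Vmn1r166 had 2 and Vmn1r257 had 1. In 13 of the sets the farthest members lay 1989.1 to 1995.7 kb apart, so that these copies were separated by nearly the same distance. Vmn1r94 and Vmn1r142 were 1 such pair and Vmn1r95 and Vmn1r143 another, and none of these 4 genes had a region. Copies did not always lack regions: Vmn1r123 and Vmn1r160, with identical windows, had 2 and 4, and the V2R genes Vmn2r34 and Vmn2r45 had 3 and 12.

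The share of promoter windows under a region was lower in both receptor families than among all coding genes. A 1.9-step region overlapped 39 V1R windows (18.9%) and 25 V2R windows (21.6%), against 34.6% of all coding windows. A 0.48-step region overlapped 13 V1R (6.31%) and 7 V2R windows (6.03%), against 12.6%. Among windows that were not repeated the 1.9-step shares were 28.1% and 26.1%, against 35.5% of all such coding windows. The 0.48-step shares were 8.89% and 7.61%, against 12.9%. The hexamer TGATAC, a core recognised by Six3 and related homeodomains, was looked for on both strands, where it reads GTATCA on the other, and occurred in 35 of 322 receptor windows (10.9%) against 4.62% of all 16456 windows of the same length. The receptor windows were poorer in G and C, with a median of 36.7% against 56.7%, and the part of base composition in that share was not tested.

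Heights at receptor genes were close to those of the autosomes, with fewer tall regions in the 1.9-step set. The median height was 5.7 (3 steps) in the 1.9-step set and 0.96 (2 steps) in the 0.48-step set, both equal to the autosomal medians. Of the 1.9-step regions 434 (21.2%) were 4 or more steps high, against 23.1% on chromosomes 1 to 19, and of the 0.48-step regions 72 (4.85%) against 4.43%. Over whole cluster spans the 1.9-step share was 19.8% (exact binomial interval 18.8 to 20.9%) against 23.0% (22.2 to 23.8%) in the flanks, and it was lower in 13 of 19 clusters. It was 21.0% against 23.5% in V1R clusters, 19.4% against 22.9% in V2R clusters and 19.4% against 23.1% in mixed clusters, so the families were alike in this. The 0.48-step share was 4.28% in spans and 4.40% in flanks. A 1.9-step region of 4 or more steps was present at 37.1% of V1R and 76.2% of V2R genes, against 56.6% of coding genes of up to 2 kb and 87.2% of all coding genes. Among V1R genes the share was 15.12% in Vmn1r91 to Vmn1r183, where many had no region, and 50.35% outside it.

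**Figure D5:**
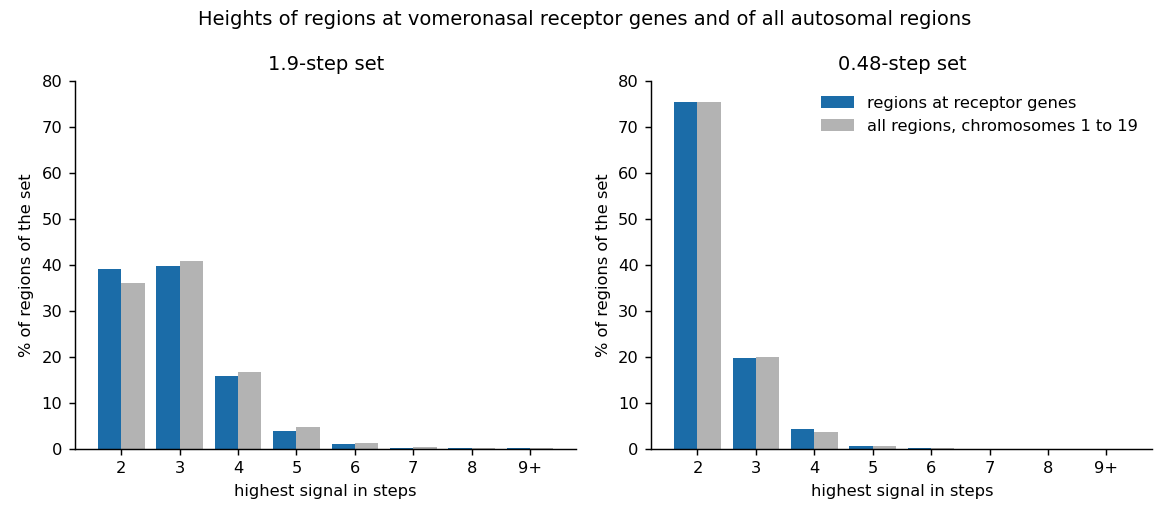
Percentage of regions at each height, in steps, for regions at receptor genes (blue) and all regions on chromosomes 1 to 19 (grey), in the 1.9-step set (left) and the 0.48-step set (right). In the 1.9-step set 39.2% of regions at receptor genes are 2 steps high against 36.1% of all regions, and in the 0.48-step set the values are 75.3% and 75.5%.

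The tallest 1.9-step regions lay beside a few single genes. At Vmn1r2 a region of 2501 bp at chr4:3174635-3177135, 1631 bp from the gene body, reached 19 (10 steps), the highest of all regions at receptor genes, against a highest of 205.2 on chromosomes 1 to 19. Its neighbour Vmn1r3 had a region of 11.4. Around Vmn2r18, 4 wide regions reached 17.1, 17.1, 15.2 and 15.2, and 3 of them lay in the gene body, the widest being 7213 bp at chr5:151559302-151566514. Of the other genes chosen by tallest region, Vmn1r57 had 15.2, Vmn2r22, Vmn2r88 and Vmn2r102 had 13.3, and Vmn1r68, Vmn1r39 and Vmn2r109 had 11.4. The regions at Vmn1r68 (chr7:10526982-10528025) and Vmn2r22 (chr6:123648160-123649313) overlapped the gene body, and those at Vmn1r57, Vmn1r39, Vmn2r88 and Vmn2r102 lay 2679, 4876, 1541 and 1667 bp away from it.

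In the 0.48-step set the tallest region was that of Vmn1r1 (chr1:182159182-182159598), 1083 bp from the gene, at 2.88 (6 steps). Vmn1r226, Vmn1r160, Vmn1r168, Vmn1r215, Vmn2r49, Vmn2r114 and Vmn2r96 each had a region of 2.4, and Vmn2r78 and Vmn2r57 had 1.92. Vmn1r160 and Vmn1r168 belong to the sparse cluster, and their 1.9-step regions reached 5.7 each. Heights were often tied: Vmn1r37 also had a region of 2.4, and Vmn2r22 and Vmn2r109, named above for their 1.9-step regions, had 0.48-step regions of 1.92, so the choice among equal heights rests on the summed signal.

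The share of regions that overlapped a region of the other set was slightly lower at receptor genes than elsewhere. Of the 0.48-step regions at receptor genes 23.1% (21.0 to 25.3%) shared at least 1 bp with a 1.9-step region, against 28.1% (27.1 to 29.1%) in the flanks and 28.4% on chromosomes 1 to 19. Of the 1.9-step regions 16.1% (14.6 to 17.8%) overlapped a 0.48-step region, against 18.1% and 17.8%. The families were close to each other, at 22.3% for V1R and 23.5% for V2R genes in the first direction. These shares rise with the density of the other set, which was lower in the clusters, and the part of density in them was not tested.

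A list of 43 genes that work with the receptors or encode related receptors was taken for comparison. Of these, 0 had no region, 43 had a 1.9-step region and 42 a 0.48-step region, where 0.837%, 98.7% and 97.8% of all coding genes did. A 1.9-step region of 4 or more steps was present at 39, beside 87.2% of all coding genes. These counts lie near the shares over all genes and are given as values only. The 15 genes of signal transduction, adhesion and transcription in these neurons, such as the cation channel gene Trpc2 and the G protein genes Gnai2 and Gnao1, all had regions of both sets, and 14 had a tall one. Of the formyl peptide receptor genes, 6 of 7 had a tall region, as had 8 of 9 H2-M class Ib genes, whose products accompany V2R receptors. Of the other receptor genes listed, 4 of 5 class C genes and 7 of 7 trace amine receptor genes had one. The tallest on the list were at Ano2 (17.1) and Ano1 (15.2), both genes of calcium-activated chloride channels, and at Omp, Fpr1 and Fpr2 (13.3 each), the last 2 being neighbours that share a region. The trace amine gene Taar2 was the one without a 0.48-step region. The listed genes and the receptor genes differ in length.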

How the data were processed

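One file was deposited, a headerless list of regions in 6 columns. By the layout of SEACR, column 5 is the highest coverage signal in a region, as the authors deposited it, and column 4 is the sum of the signal at each base (signal × bp). The submitters' processing notes name Bowtie2, deepTools, SEACR and the build mm10. The sources used here give no versions, settings, filters or scale factors. Per the labels' protocols, phenol/chloroform extraction was followed by ThruPLEX library preparation.

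Regions were put in a step set when column 5 was within 0.001 of a whole multiple of 1.9 or 0.48. Genes came from a RefSeq table of GRCm38.p6. Regions were counted in spans and flanks by their midpoint, and flank shared by neighbouring clusters was counted once when pooled. Intervals are exact binomial (Clopper-Pearson, 95%). No test was run: the planned test of FLAG against IgG needs values per library. The members and lists were chosen with earlier results of these data known. Named genes were, in each family, up to 5 with the tallest region of each set, up to 5 with none, the one with most regions per kb, those beside the longest bare stretch of the 5 largest clusters, every isolated gene, and the 5 of the list with the tallest region; exceptions are stated. The calculations were tested on simulated data. Alternatives changed flanks, chaining, windows, heights, bare stretches and clusters left out. Exons, introns, repeats and assembly gaps were not analysed here. Python 3.11.15, numpy 2.4.6, pandas 2.3.3, scipy 1.17.1 and matplotlib 3.10.9 were used.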

Additional observations from a re-analysis of the deposited data

How the results depend on the processing

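Of 93 other settings, 54 left a value within its counting interval or within 1.5 times a count, 39 moved it and 0 turned a ratio to the other side of 1. The main 1.9-step ratio of clusters to flanks, 0.709, became 0.760 with flanks of 500 kb, 0.664 with a chaining gap of 1 Mb, 0.789 without stretches of 50 kb or more that hold no region, 0.664 for regions of 3 or more steps, 0.786 for 2 steps or fewer and 0.774 in gene windows alone. The 0.48-step ratio, 0.815, became 0.771 with a gap of 1 Mb, 0.908 without such stretches and 0.849 in gene windows. For V1R clusters the 1.9-step ratio of 0.547 became 0.729 without such stretches, 0.597 for 2 steps or fewer, 0.624 in gene windows and 0.679 with families chained separately, and the 0.48-step ratio of 0.607 became 0.809 without such stretches, 0.553 for 3 or more steps, 0.658 in gene windows and 0.738 with separate chaining. For V2R clusters the 1.9-step ratio of 0.717 became 0.778 with flanks of 500 kb, 0.758 and 0.817 with gaps of 250 kb and 1 Mb, 0.665 for 3 or more steps, 0.807 for 2 steps or fewer, 0.816 in gene windows and 0.755 with separate chaining. The 0.48-step ratio of 0.831 became 0.881 with flanks of 500 kb, 0.916 with a gap of 1 Mb, 0.884 in gene windows and 0.890 with separate chaining. Vmn1r91 to Vmn1r183 and Vmn2r29 to Vmn2r37 were also left out together, a setting chosen after seeing the data. The ratios were then 0.867 and 0.969 for all clusters, 0.874 and 0.899 for V1R and 0.829 and 0.929 for V2R clusters. For all clusters the 0.48-step interval held 1 (0.932 to 1.006), whereas the 1.9-step interval did not (0.839 to 0.895). The intervals of the V1R and V2R ratios all lay below 1.

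With each cluster left out in turn the ratios ran from 0.678 to 0.802 and from 0.771 to 0.910 for all clusters in the 1.9-step and 0.48-step sets. They ran from 0.447 to 0.874 and from 0.526 to 0.899 for V1R clusters and from 0.681 to 0.829 and from 0.799 to 0.929 for V2R clusters, and the bare share of spans ran from 6.49% to 17.3%. Gene bodies alone left 1932 regions, with 110 V1R and 3 V2R genes without one. The share of tall 1.9-step regions in spans was 0.862 times that of the flanks, 0.937 times with 3 or more steps and 0.975 times for the median summed signal. With words of 30 or 100 bases, also chosen after seeing the data, 40 V1R genes with repeated windows still had no region. The cause of these shifts was not tested. No paired analysis was possible because the table has no column per library and IgG has 1 library, and without a library depth a missing region does not show that binding is absent.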

Other observations

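Receptor pseudogenes, which are no members of the set above, lay in the same arrays and were counted in the same way. Of 137 V1R pseudogenes 11 had no region in the body with 5 kb either side (8.03%), and of 128 V2R pseudogenes 7 had none (5.47%). In Vmn1r91 to Vmn1r183, 7 of 13 pseudogenes had none, against 41 of 86 coding genes there, and elsewhere 4 of 124 V1R pseudogenes had none. Within that cluster, coding genes and pseudogenes thus lacked regions in similar shares, 47.7% and 53.8%.

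Sequence stretches as sparse as the 2 sparsest clusters were rare on chromosomes 1 to 19. Of 2393 windows of 1 Mb, 17 (0.710%) held fewer 1.9-step regions per Mb than Vmn1r91 to Vmn1r183, and 15 (0.627%) fewer than Vmn2r29 to Vmn2r37. Windows within the clusters themselves were not left out of these counts. The 2 cluster values are means over 3.965 and 2.021 Mb and are set against single windows of 1 Mb. Stretches of 20 kb or more without a region numbered 403 on these chromosomes and made up 25.4 Mb, and the longest was 1008292 bp, longer than any in a receptor cluster.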
